A study of Mus musculus with 18 samples.

Results

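The genes described here make the substrate-binding parts of ubiquitin ligases of skeletal muscle and their relatives. They are Trim63, Trim55 and Trim54, which encode the RING-finger ligases MuRF1, MuRF2 and MuRF3, the F-box gene Fbxo32 (atrogin-1, or MAFbx), and the BTB-Kelch genes Klhl31, Klhl40 and Klhl41. They were chosen by name, and every array probe annotated to them was used. Of these 7 genes, 6 had a probe, with 9 of the 45281 probes of the array between them. No probe was annotated to Trim55, so no value of it is given.

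Ubiquitin ligases attach ubiquitin to proteins and so mark many of them for the proteasome. MuRF proteins carry the ligase activity in their own RING finger and sit on sarcomeres and microtubules, whereas an F-box protein brings substrates to a ligase built on the cullin Cul1. BTB-Kelch proteins belong to the family of adaptors for the cullin Cul3. In muscle, Trim63 and Fbxo32 are the best known genes of atrophy, since their transcripts rise when muscle wastes. KLHL40 and KLHL41 are known from human nemaline myopathy, a disease of the thin filaments.

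The cells were cultured skeletal myoblasts of mice of the strain Gata4tm1.1Sad/J, whose Gata4 gene is flanked by loxP sites. KO myoblasts had received an adenovirus with Cre recombinase, OE myoblasts a retrovirus with mouse GATA4, and Wt myoblasts an adenovirus with nuclear β-galactosidase, a bacterial marker enzyme. Day 3 cells had spent 3 days in differentiation medium, in which myoblasts leave the cell cycle and fuse into myotubes, and day 0 cells were taken in growth medium. With 3 Illumina bead arrays for each combination there were 18 arrays in 6 labelled groups. All groups thus share the loxP alleles and a viral infection, and OE cells differ from Wt cells in the kind of virus too. The labels do not say whether replicates were separate cultures, so each p-value reflects how far these samples scatter, and that scatter may be technical.

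Between 16974 and 19966 probes were detected per array (detection p-value below 0.05, against the negative control probes), and the median signal was 96.6 to 110.4 intensity units. The targeted gene gave no check of the labels. The only Gata4 probe, ILMN_2817903, had signals of 91.9 to 116.3 and was detected on 5 of the 18 arrays, 1 of them labelled KO and 1 labelled OE. Of 8 myoblast markers, 6 were detected on all 18 arrays, Myf5 on 13 and Pax7 on 2. The arrays did not sort by their labels. Linking each array to those most similar over 11921 genes gave 6 sets of 3 mutually closest arrays, and each set held more than 1 label. Of these sets, 5 held both days. Ckm, the muscle creatine kinase of differentiated fibres, lay at 10.87 to 11.39 (log2 intensity) on 9 arrays and at 6.78 to 8.05 on the other 9. Top2a, a topoisomerase of dividing cells, was the other way round on the same arrays. The arrays with high Ckm were the 3 labelled KO day 3, replicate 1 of OE day 3, replicates 1 and 3 of Wt day 3, and replicate 1 of KO day 0, replicate 2 of OE day 0 and replicate 1 of Wt day 0. So 6 arrays, 3 of each labelled day, lay on the other side from the rest of their day. Whether each column of the deposited table stands under the right title was not tested, and every KO, OE and Wt value below rests on those titles. All groups below are the groups as labelled.

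Promoter sequences are shown because most of these genes moved together over the arrays, as given below. The RefSeq promoter table (GRCm38.p6) matched 5 of the 7 genes, without Trim55 and Fbxo32. The sequences are the 250 bases before each gene's start, 5′ to 3′ on the + strand, which is the coding strand of all 5 genes. For Klhl40 the start used by that table lies inside the interval annotated for the gene. Capitals mark CAGCTG, which is the E-box with a GC centre that myogenic factors such as MyoD bind, TGTTTAC, which is a forkhead (FOXO) motif, and the MEF2 consensus.
Trim63, chr4:134314870-134315119: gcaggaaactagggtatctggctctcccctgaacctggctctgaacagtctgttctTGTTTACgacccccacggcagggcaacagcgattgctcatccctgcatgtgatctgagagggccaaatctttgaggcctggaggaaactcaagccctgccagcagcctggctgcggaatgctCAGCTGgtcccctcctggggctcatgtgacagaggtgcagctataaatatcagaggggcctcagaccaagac
Trim54, chr5:31116362-31116611: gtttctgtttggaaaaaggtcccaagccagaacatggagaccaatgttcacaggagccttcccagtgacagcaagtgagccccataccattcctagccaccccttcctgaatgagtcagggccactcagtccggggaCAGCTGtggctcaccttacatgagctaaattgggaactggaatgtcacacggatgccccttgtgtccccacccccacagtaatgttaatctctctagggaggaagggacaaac
Klhl31, chr9:77636482-77636731: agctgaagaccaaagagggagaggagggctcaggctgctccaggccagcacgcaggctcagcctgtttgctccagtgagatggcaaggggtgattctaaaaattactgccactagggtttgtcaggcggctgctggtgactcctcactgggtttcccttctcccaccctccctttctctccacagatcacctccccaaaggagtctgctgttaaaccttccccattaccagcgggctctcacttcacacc
Klhl40, chr9:121777357-121777606: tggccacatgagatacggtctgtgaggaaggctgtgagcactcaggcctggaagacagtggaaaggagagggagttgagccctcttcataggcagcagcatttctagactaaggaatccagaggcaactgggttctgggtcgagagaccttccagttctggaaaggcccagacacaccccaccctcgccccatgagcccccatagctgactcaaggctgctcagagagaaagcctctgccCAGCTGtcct
Klhl41, chr2:69669870-69670119: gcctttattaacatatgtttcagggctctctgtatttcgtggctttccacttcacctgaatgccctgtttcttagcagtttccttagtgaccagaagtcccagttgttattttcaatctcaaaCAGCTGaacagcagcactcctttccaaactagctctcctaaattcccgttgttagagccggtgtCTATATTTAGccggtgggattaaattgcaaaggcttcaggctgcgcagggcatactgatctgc
The motif CAGCTG stood in 4 of the 5 windows, against 13% of all 32851 promoter windows of this length. Its first base lay 72 bases before the start of Trim63, 113 before that of Trim54, 10 before that of Klhl40 and 127 before that of Klhl41. The MEF2 consensus was found in Klhl41, 63 bases before the start, against 2.92% of all windows. TGTTTAC was found in Trim63, 194 bases before the start, against 3.17% of all windows. TATAAA was also found in Trim63, 31 bases before the start, against 12.4%. The wider E-box CANNTG, which includes CAGCTG, was in the same 4 windows, against 66.2% of all. GATAA, a form of the motif that GATA factors bind, was in none of the 5 windows, against 22.6% of all. The shorter GATA was not searched for. The Klhl40 window shown holds it, and the Trim63 window holds it on the other strand, as TATC. The serum response CArG box was in none, against 1.47%. Both strands were searched. These are matches of letters in 1 short window and show neither binding nor its absence.

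Trim63 (chr4:134315120-134329629 in GRCm38.p6, as for all coordinates here, probe ILMN_3161060) encodes MuRF1, a ligase that binds titin and targets proteins of the thick filament. At day 3 its log2 intensity was 8.02, 8.02 and 7.63 in KO, 7.79, 5.91 and 5.50 in OE, against 8.06, 5.99 and 8.22 in Wt. At day 0 it was 7.79, 6.01 and 5.98 in KO, 5.82, 7.93 and 6.03 in OE, against 8.05, 6.28 and 6.36 in Wt. The KO day 3 arrays were all high, and each of the other 5 groups held both high and low arrays, so the groups overlapped. No array fell between 6.36 and 7.63. Signals ran from 127 to 394 intensity units, and the probe was detected on all 18 arrays.

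Trim54 (chr5:31116612-31137626, probe ILMN_2756950) encodes MuRF3, which binds microtubules and the sarcomere. At day 3 it had 10.55, 10.60 and 9.95 in KO, 9.91, 8.18 and 8.37 in OE, against 10.35, 8.96 and 10.56 in Wt. At day 0 it had 10.25, 8.95 and 9.13 in KO, 8.66, 10.57 and 8.96 in OE, against 9.76, 8.68 and 9.003 in Wt. The split was narrower than for Trim63, with its widest gap from 9.13 to 9.76. The same 9 arrays lay above it. The probe was detected on all 18 arrays, at 310.0 to 1977 intensity units.

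Fbxo32 (chr15:58175879-58214892) encodes atrogin-1, the F-box protein whose known substrates include MyoD and eIF3f. Its brightest probe, ILMN_2873444, had log2 intensities at day 3 of 8.12, 8.07 and 8.31 in KO, 8.37, 8.97 and 8.35 in OE, against 7.12, 7.71 and 8.29 in Wt. At day 0 it had 8.05, 7.56 and 7.51 in KO, 8.58, 7.16 and 8.62 in OE, against 7.83, 8.29 and 7.94 in Wt. Fbxo32 did not split as the other genes did. Its widest gap was 0.35, and 2 arrays lay below it, replicate 1 of Wt day 3 and replicate 2 of OE day 0, both with high Ckm. Next lowest were KO day 0 replicates 3 and 2, Wt day 3 replicate 2 and Wt day 0 replicate 1, at 7.51 to 7.83. On these and the 2 lowest arrays Usp18, an interferon-induced gene, lay at 9.72 to 12.52, against at most 5.43 on the rest. That order was described after the values were seen. The part of the interferon genes in Fbxo32 was not tested. The 9 highest arrays of Fbxo32 shared 4 with the 9 highest of Ckm. OE day 3 was the group with the highest lowest array, and all its arrays lay above all 3 Wt day 3 arrays.

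Fbxo32 was also read by the probes ILMN_2715893 and ILMN_2752994, and all 3 probes were detected on every array. All 3 were highest on OE day 3 replicate 2, at 7.50, 7.53 and 8.97 in the order of the numbers of the probes. The lowest array was KO day 0 replicate 3 for ILMN_2715893, OE day 0 replicate 2 for ILMN_2752994 and Wt day 3 replicate 1 for ILMN_2873444. The arrays with high Usp18 lay at 6.01 to 6.47 on ILMN_2715893, and all other arrays at 6.55 or above. On ILMN_2752994, OE day 3 replicate 3 (6.25), with low Usp18, lay below Wt day 0 replicate 1 (6.28), with high Usp18. After each probe was centred on its own mean, pairs of probes differed by 0.20 to 0.30 (root mean square over 18 arrays, log2), against an SD of 0.50 for the brightest. On ILMN_2715893 the OE day 3 arrays had 6.84, 7.50 and 6.88, and the Wt day 3 arrays had 6.19, 6.35 and 6.87. On ILMN_2752994 they had 6.94, 7.53 and 6.25 on OE day 3, and 6.15, 5.74 and 6.96 on Wt day 3. The separation of these groups seen on the brightest probe was thus lost on ILMN_2715893 and on ILMN_2752994, where Wt day 3 replicate 3 overlapped the OE arrays.

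Klhl31 (chr9:77636732-77660125, probe ILMN_1247118) encodes a Kelch protein whose loss causes a myopathy in mice. At day 3 it had 8.02, 8.20 and 7.96 in KO, 7.77, 5.92 and 6.07 in OE, against 8.06, 6.14 and 8.08 in Wt. At day 0 it had 8.08, 6.14 and 5.93 in KO, 5.64, 7.93 and 5.71 in OE, against 8.27, 5.48 and 5.85 in Wt. It had the widest empty interval of the 6 genes, 1.63 log2 units between 6.14 and 7.77. The highest array of all was labelled Wt day 0, and the lowest was another array of that group. The weaker probe ILMN_3161736 had the same 9 arrays on top and was detected on 15 of 18 arrays. The 3 on which it was not detected were OE day 3 replicate 2, KO day 0 replicate 3 and OE day 0 replicate 1.

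**Figure D1:**
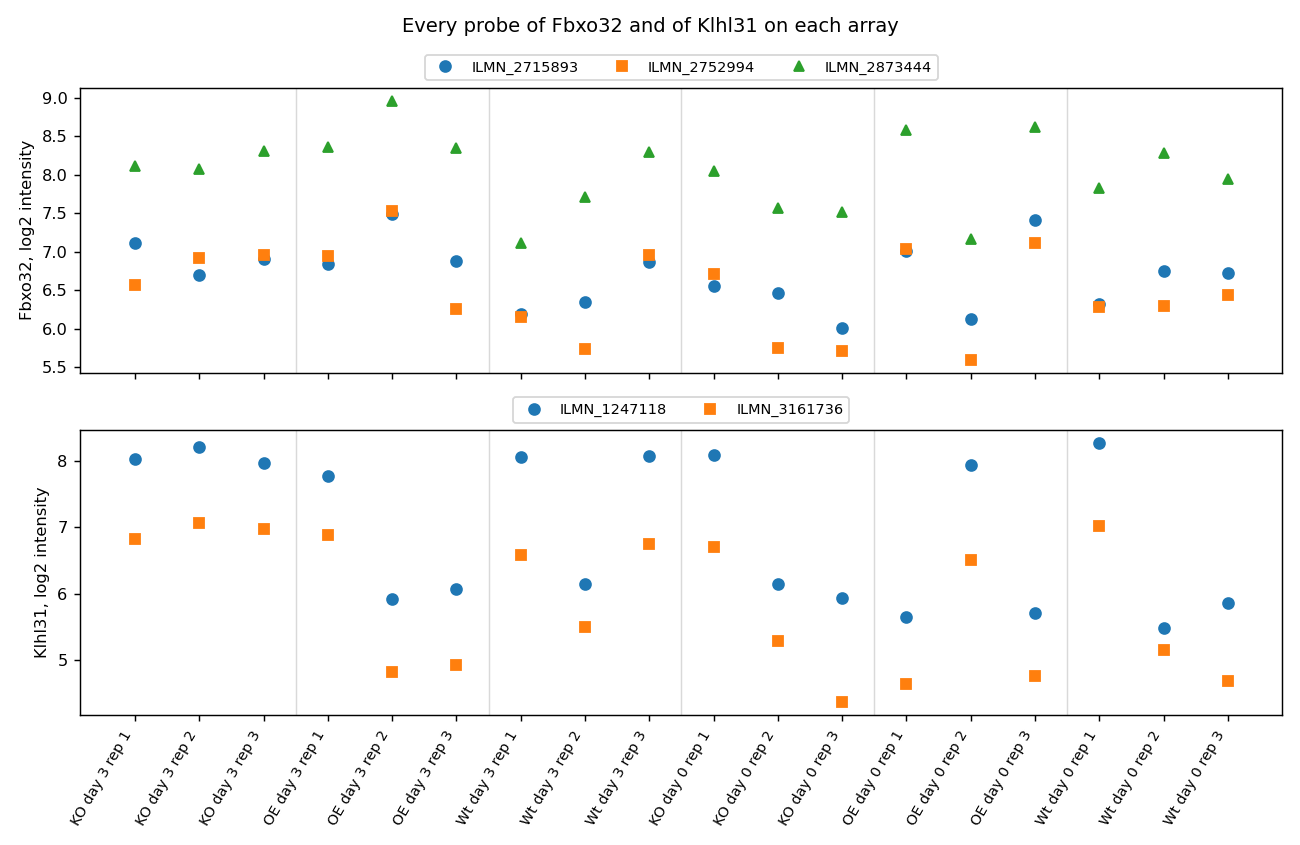
Log2 intensity of each probe of Fbxo32 (upper panel, 3 probes) and of Klhl31 (lower panel, 2 probes) on each of the 18 arrays, which run along the horizontal axis by labelled group. The Klhl31 probes rise and fall on the same arrays, and the Fbxo32 probes are all highest on OE day 3 replicate 2, at 7.50, 7.53 and 8.97.

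Klhl40 (chr9:121777499-121791200, probe ILMN_2636054) encodes a thin-filament protein that stabilises nebulin and leiomodin-3. At day 3 it had 10.0003, 9.93 and 9.68 in KO, 9.44, 7.76 and 7.86 in OE, against 10.26, 8.34 and 10.31 in Wt. At day 0 it had 9.69, 8.57 and 8.24 in KO, 7.62, 9.96 and 7.69 in OE, against 10.27, 7.62 and 7.58 in Wt. The same 9 arrays were high. Among the low 9, the highest were KO day 0 replicates 2 and 3 and Wt day 3 replicate 2, and the other 6 lay between 7.58 and 7.86. Those 3 arrays also had the highest Usp18, an interferon-induced gene, at 12.41, 12.40 and 12.52, against at most 9.94 elsewhere. This order of Klhl40 was also described after the values were seen. The same 3 arrays lay above the other 6 low arrays for Ckm, but not all of them did for Trim63, Trim54, Klhl31 or Klhl41. The part of the interferon genes in the values of Klhl40 was not tested.

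Klhl41 (chr2:69670120-69684239, probe ILMN_2527465) encodes a sarcomeric Kelch protein once named sarcosin. At day 3 it had 11.57, 11.79 and 11.70 in KO, 11.43, 9.97 and 10.32 in OE, against 11.76, 10.20 and 11.92 in Wt. At day 0 it had 11.31, 10.44 and 9.98 in KO, 9.61, 11.75 and 9.50 in OE, against 12.10, 9.94 and 9.87 in Wt. Its widest gap ran from 10.44 to 11.31, again with the same 9 arrays above. The KO day 3 arrays lay close together, between 11.57 and 11.79, and above all 3 KO day 0 arrays. Signals ran from 856 to 4548 intensity units.

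**Figure D2:**
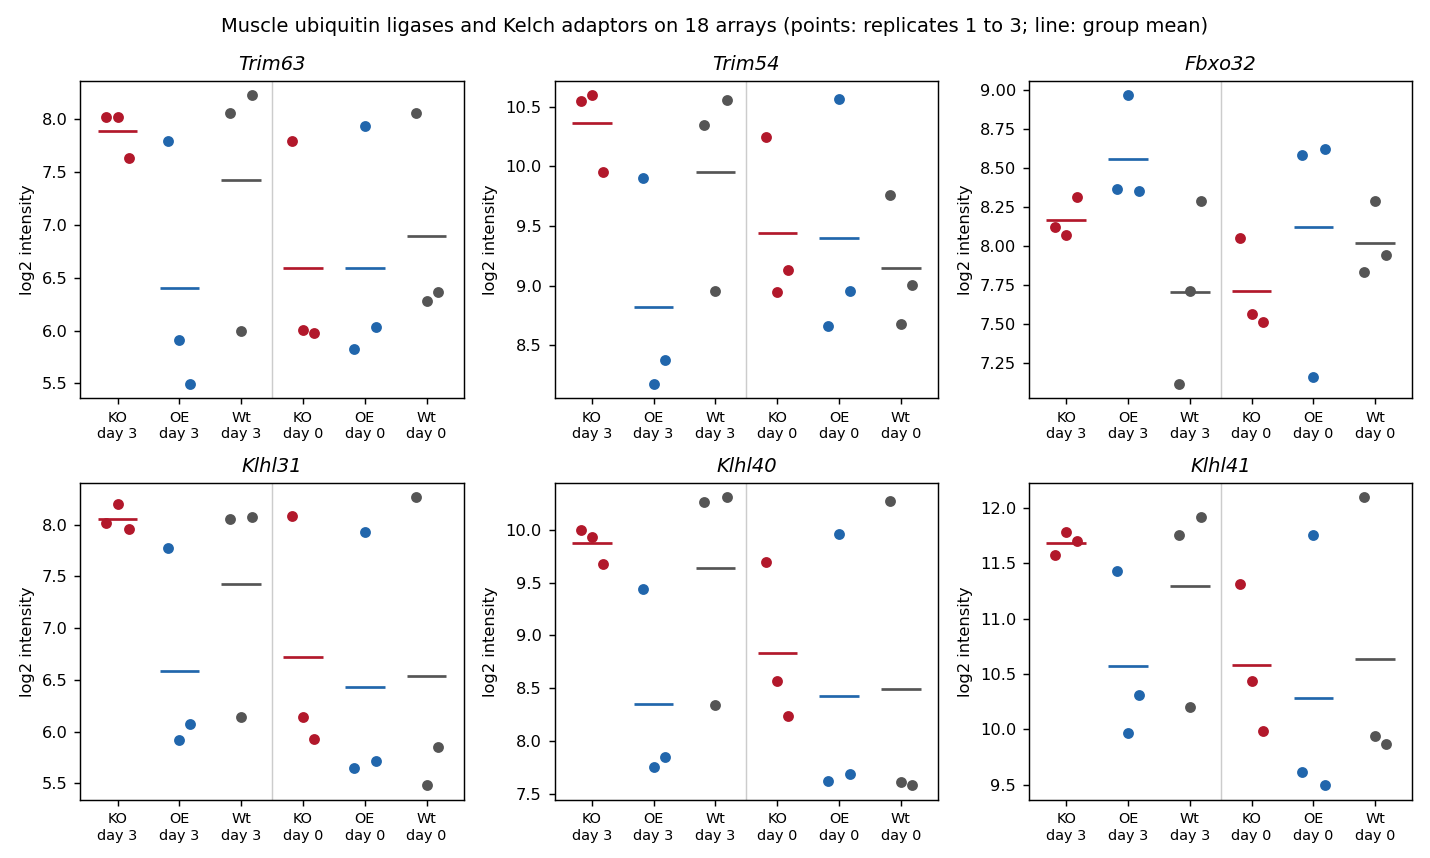
Log2 intensity (vertical axis, a scale of its own in each panel) of the 6 measured genes on every array, by labelled group; points are replicates 1 to 3 and the line is the group mean. In all panels but that of Fbxo32, the 3 KO day 3 arrays are high and each other group holds at least 1 high and at least 1 low array.

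Trim63, Trim54, Klhl31, Klhl40 and Klhl41 therefore shared 1 pattern: the widest gap of each split the arrays 9 to 9, and the upper 9 were those of Ckm. Over all other genes tested, 10.2% of 11920 had the same 9 highest arrays as Ckm, and 9.95% had exactly the other 9 as their highest. The split was described after the values were seen, and the 2 sets of 9 arrays were neither averaged nor tested against each other. In bulk RNA, fewer differentiated cells and less RNA of these genes per cell cannot be told apart. All 6 genes varied more than most: their ranges over the arrays were 1.85 (Fbxo32) to 2.79 (Klhl31) log2 units, against a median range of 1.16 over all genes. Fbxo32 had a wider range than 82% of genes and Klhl31 a wider one than 95%.

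**Figure D3:**
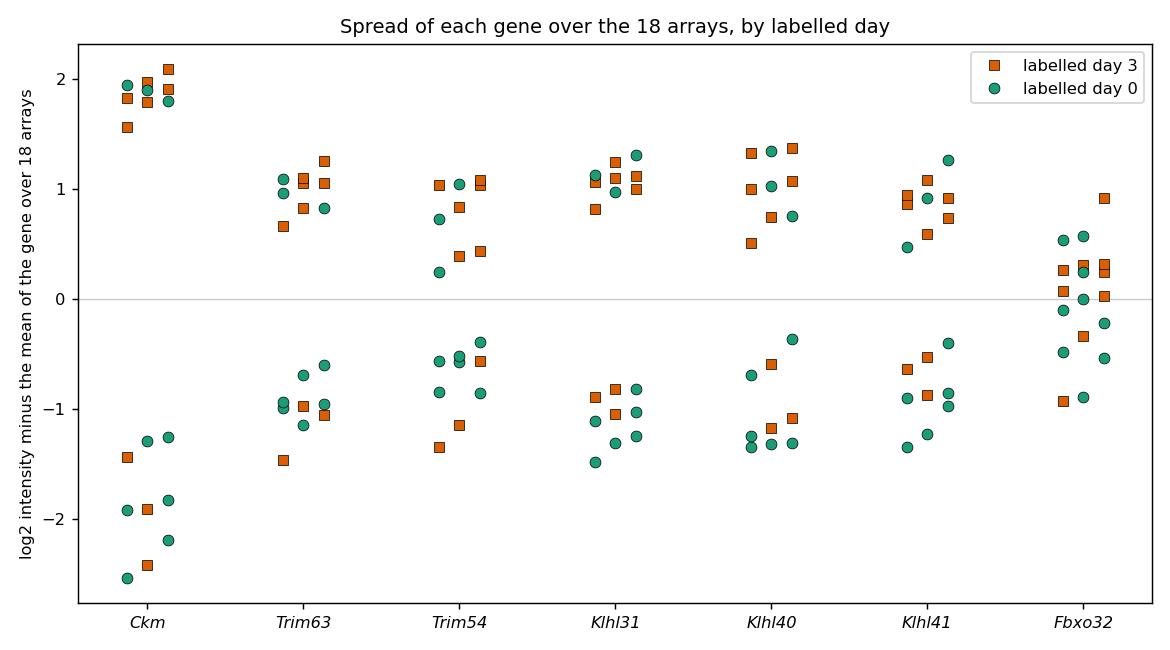
Log2 intensity of Ckm and of the 6 genes minus each gene's mean over the 18 arrays (vertical axis), 1 point per array; squares are arrays labelled day 3 and circles those labelled day 0. Ckm and 5 genes fall into 9 high and 9 low arrays, each with both days, and Fbxo32 forms 1 band.

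Profiles were compared by the root mean square difference of centred log2 values over the 18 arrays, which is 0 for identical profiles. Within the family, Klhl31 and Klhl40 were closest, at 0.23, followed by Klhl40 and Klhl41 at 0.26. Trim63 was closest to Klhl31, at 0.31, and not to the related Trim54, at 0.35. Fbxo32 differed from the others by 1.11 to 1.34. Over all genes, those most like Trim63 were Hspb2, Smtnl1 and Ttn, at 0.18, 0.19 and 0.20. Ttn encodes titin, the protein MuRF1 binds. Those most like Trim54 were Tns1, Parp3 and Cryab, at 0.18 to 0.20. For Klhl31 they were Mef2c, a muscle transcription factor gene, at 0.15, Cox8b at 0.18 and Gjd4 at 0.20. For Klhl40 they were Dhrs7c, Jakmip1 and Cav3, at 0.22 to 0.23, and for Klhl41 Stim1, Kctd9 and Pdlim3, at 0.19 to 0.20. No gene is named for Fbxo32, whose SD of 0.497 missed the minimum of 0.5 set for this step.

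Knockout was compared with wild type to ask whether loss of Gata4 changed these genes. At day 3 all 6 differences, KO minus Wt, were positive, with a median of 0.44, against −0.01 over all 11921 genes. In the same comparison 12 of 13 muscle differentiation genes were positive (median 0.42) and 10 of 10 interferon genes negative (median −2.46). At day 0 the interferon genes were all positive (median 1.80), and the part of these genes in the differences was not tested. The group means of Klhl31 were 8.06 ± 0.13 in KO and 7.42 ± 1.11 in Wt (SD, n = 3 each), a difference of 0.64 ± 0.84 (SE). The other 5 differences were 0.23 to 0.46. None of the 6 passed an adjusted p of 0.05 (limma, adjusted p 0.94 to 0.97), and 0% of 11921 genes did. The KO and Wt arrays overlapped for all 6 genes, while 4.82% of all genes were higher and 4.19% lower without overlap. For 5 of the genes the sign rested on 1 array: without Wt day 3 replicate 2, the differences were −0.25 for Trim63, −0.09 for Trim54, −0.01 for Klhl31, −0.41 for Klhl40 and −0.16 for Klhl41. Fbxo32 stayed positive whichever array was left out, at 0.17 to 0.76, with the lowest value without Wt day 3 replicate 1. At day 0, 3 differences were positive and 3 negative, from −0.31 (Fbxo32 and Trim63) to 0.34 (Klhl40). None of the 6 passed there either (adjusted p of at least 0.99, limma), again beside 0% of all genes. At an unadjusted p below 0.05 there were 273 genes at day 3 and 763 at day 0, and none of the 6 was among them. Over all 9 comparisons such genes numbered 273 to 992, with 1 of the 6 in 1 comparison, given next.

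Overexpression was compared with wild type in the same way. At day 3 Fbxo32 averaged 8.56 ± 0.35 in OE and 7.71 ± 0.59 in Wt (SD, n = 3 each). The difference of 0.86 ± 0.36 (SE) corresponds to a ratio of 1.81. All 3 OE arrays lay above all 3 Wt arrays, as for 3.15% of all genes in that direction. It did not pass after adjustment (limma, unadjusted p 0.031, adjusted p 0.92), and 0% of 11921 genes passed. Leaving out single arrays gave 0.56 to 1.15, with the lowest value without Wt day 3 replicate 1. Usp18 was at 9.77 on that array, 12.52 on Wt day 3 replicate 2 and 5.23 on replicate 3, where Fbxo32 was at 8.29. On the OE arrays Usp18 was at 5.11, 4.77 and 5.31. All 10 interferon genes were negative in this comparison, with a median of −2.46. The part of the interferon genes in the difference of Fbxo32 was not tested. The differences of the other 5 genes described here were negative. Trim63 averaged 6.40 ± 1.22 in OE and 7.42 ± 1.24 in Wt, a difference of −1.02 ± 0.77 (SE). Trim54 had a difference of −1.14 ± 0.58, Klhl31 of −0.84 ± 0.84, Klhl40 of −1.28 ± 0.79 and Klhl41 of −0.72 ± 0.69. Leaving out single arrays gave −1.74 to −0.57 for Trim63, −1.68 to −0.82 for Trim54, −1.48 to −0.50 for Klhl31, −1.93 to −0.95 for Klhl40 and −1.27 to −0.41 for Klhl41. The most negative of these came without Wt day 3 replicate 2, except for Trim54, where OE day 3 replicate 1 was left out. None passed (adjusted p 0.92 each, limma), and their groups overlapped, beside 2.41% of genes lower without overlap. The 13 tested genes of the muscle differentiation list, Ckm among them, were all negative in the same comparison, with a median of −0.94. At day 0 the OE minus Wt differences ran from −0.35 (Klhl41) to 0.25 (Trim54), with adjusted p of 1.00 throughout (limma) and 0% of genes called.

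Day 3 was compared with day 0 within each label, to follow differentiation. In KO myoblasts all 6 differences were positive, with a median of 1.07 against −0.01 over all genes. All 13 muscle differentiation genes were positive too, with a median of 1.20, and all 12 cell cycle genes negative, with a median of −1.67. Klhl31 averaged 8.06 ± 0.13 at day 3 and 6.72 ± 1.19 at day 0 (SD, n = 3 each), a difference of 1.34 ± 0.84 (SE) or a ratio of 2.53. Trim63 differed by 1.30 ± 0.77, Klhl41 by 1.11 ± 0.69, Klhl40 by 1.03 ± 0.79, Trim54 by 0.93 ± 0.58 and Fbxo32 by 0.46 ± 0.36. None passed (limma, adjusted p 0.49 to 0.53), beside 0% of all genes. The arrays of Fbxo32 and of Klhl41 did not overlap between the days, as for 9.38% of all genes in that direction. For Fbxo32 the nearest arrays were at 8.07 and 8.05, and on ILMN_2752994 the days overlapped, with KO day 3 replicate 1 at 6.57 against KO day 0 replicate 1 at 6.71. KO day 0 replicate 1, the only array of its group with high Ckm, was the highest of its group for all 6 genes. Usp18 lay at 5.08 to 5.38 on KO day 3, against 12.41 and 12.40 on the other 2 arrays of KO day 0, and the part of this in the differences was not tested. Leaving replicate 1 out gave differences of 0.63 for Fbxo32 to 2.02 for Klhl31. The lowest values came without KO day 0 replicate 3, or replicate 2 for Trim54, and were 0.99 for Trim63, 0.68 for Trim54, 0.36 for Fbxo32, 0.95 for Klhl31, 0.74 for Klhl40 and 0.81 for Klhl41. With limma's array weights, which gave that replicate a weight of 0.26 and its 2 partners 1.37 and 4.08, all 6 genes rose (differences of 0.57 to 2.02). Under the same weights 52.6% of all genes passed.

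In Wt myoblasts 5 of 6 differences, day 3 minus day 0, were positive. Klhl40 averaged 9.64 ± 1.12 at day 3 and 8.49 ± 1.54 at day 0 (SD, n = 3 each), a difference of 1.14 ± 0.79 (SE), and Fbxo32 had −0.31 ± 0.36. Leaving out single arrays gave 0.69 to 2.03 for Klhl40, 0.36 to 1.76 for Klhl31 and 0.28 to 1.39 for Klhl41, highest without Wt day 0 replicate 1. It gave 0.13 to 1.24 for Trim63 and 0.51 to 1.31 for Trim54, highest without Wt day 3 replicate 2, and −0.61 to −0.019 for Fbxo32, nearest to 0 without Wt day 3 replicate 1. All 13 muscle differentiation genes were positive here as well, with a median of 0.74 against 0.73 for the 6 genes. None of the 6 passed (limma, adjusted p 0.90 each), beside 0% of genes. With array weights Klhl31 (1.98) and Klhl40 (2.26) passed, each at an adjusted p of 0.0497, where 5.56% of genes did. In OE myoblasts the differences ran from −0.58 (Trim54) to 0.44 (Fbxo32), with adjusted p of 1.00 (limma) and 0% of genes called. The KO change over time exceeded the Wt change by 0.77 ± 0.51 (SE) for Fbxo32 and by 0.77 ± 1.09 for Trim63, and the OE change exceeded it by 0.75 ± 0.51 for Fbxo32. Without single arrays the KO values ran from 0.48 to 1.07 for Fbxo32 and from 0.053 (without Wt day 3 replicate 2) to 1.37 (without KO day 0 replicate 1) for Trim63. The OE value of Fbxo32 ran from 0.27 (without OE day 0 replicate 2) to 1.05. The interferon genes had a median of −4.69 in the KO change minus the Wt change, with 10 of 10 negative. In the OE change minus the Wt change their median was −1.34, with 9 of 10 negative. Their part in the values of Fbxo32 and Trim63 was not tested. None of these tests of a difference between changes passed (adjusted p at least 0.84, limma), beside 0% of genes in both. The comparisons share Wt arrays and, in part, each other's arrays.

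**Figure D4:**
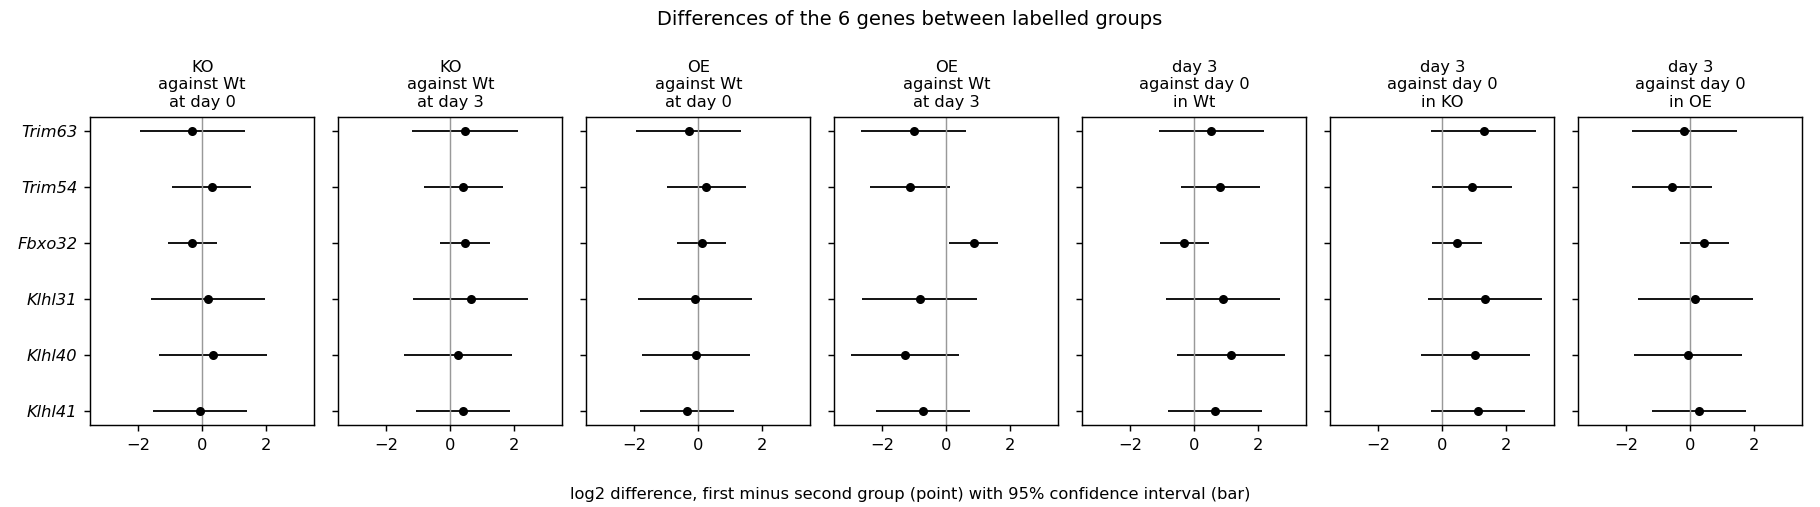
Log2 difference (horizontal axis, first minus second group named above each panel) of the 6 genes in 7 comparisons; points are estimates over 3 arrays per group and bars are 95% confidence intervals. Every interval includes 0 except that of Fbxo32 for OE against Wt at day 3, which runs from 0.09 to 1.62 before any adjustment for the number of genes.

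The rest of the ubiquitin pathway was followed with lists of its parts. None of their genes passed in any of the 9 comparisons (limma), beside 0% of all genes. Of 24 other muscle E3 ligases and F-box genes, 21 were tested, and their median range over the arrays was 1.07. Asb2, a cullin-bound adaptor that targets filamins, had the widest at 5.01 log2 units, followed by Rnf123 and Fbxo40 at 1.83 each, and all 3 had the same 9 highest arrays as Ckm. In all, 4 of the 21 had them, the other being Fbxo31, and 2 of the 21 had the opposite 9. Over all other genes tested the shares were 10.2% and 9.95%. The cullin core, which F-box and Kelch proteins dock on, had the lowest median range of these lists. Its 15 tested genes had a median range of 0.63, none had the 9 arrays of Ckm on top, and the widest were Cul2 at 1.30, Cul1 at 1.29 and Cul5 at 1.15. The 31 tested proteasome subunits had a median range of 0.71, led by Psmd11 at 1.69, Psmd8 at 1.56 and Psmb5 at 1.54, and 1 of them, Psmc3, had those 9 arrays on top. The 10 tested genes of ubiquitin and its conjugating enzymes had a median range of 1.06, led by Ube2n at 1.76, Ube2d3 at 1.51 and Ube2b at 1.18. None of them had those 9 arrays on top, and 1 had the opposite 9.

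FOXO factors drive Trim63 and Fbxo32 in wasting muscle. Of 23 FOXO factors and linked genes, 19 were tested, with a median range of 1.63. Trib3, at 3.28 the widest, had its 9 highest arrays exactly where Ckm was low, and Txnip followed at 2.47 and Ddit4 at 2.29. Only Sesn1 of the 19 shared the 9 highest arrays of Ckm, and 3 had the opposite 9. Over all other genes tested these shares were 10.2% and 9.95%. Among partners and substrates of the ligases and adaptors, 12 of 23 tested had the same 9 arrays on top, among them Ttn, Lmod3, Flnc, Mybpc1 and Myh4. The opposite 9 were on top for 2 of the 23. Mylpf and Myog, also among the 12, are in the muscle differentiation list too. The widest were Myh4 at 4.47, Mybpc1 at 4.07 and Myh1 at 3.64. Of the wider BTB-Kelch family, 34 of 48 genes were tested. Among these, 5 (Kbtbd7, Kbtbd13, Klhl3, Klhl8 and Klhl30) shared the 9 arrays and 1 had the opposite 9, beside 10.2% and 9.95% of all genes. The widest of that family were Klhl3 at 3.62, Klhl13 at 3.00 and Klhl30 at 2.62. In the KO comparison of day 3 with day 0, the median difference was 0.54 for the partners, 0.12 for the other BTB-Kelch genes, 0.17 for the proteasome, 0.14 for the cullin core, 0.01 each for the other ligases and for ubiquitin with its enzymes, and −0.33 for the FOXO list.

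Markers of other cell types were also read on the arrays where the muscle genes were high or low. Of 5 smooth muscle markers, Acta2, Smtn and Lmod1 had the same 9 arrays on top as Ckm, and the defining Myh11 and Cnn1 were detected on none. The mean of the 5 ranged from 7.93 to 7.99 on KO day 3, 7.11 to 8.02 on OE day 3, 7.21 to 8.002 on Wt day 3, 7.11 to 7.88 on KO day 0, 6.95 to 7.72 on OE day 0 and 7.12 to 7.83 on Wt day 0. Of 7 fibroblast markers with a probe, Dcn had those 9 arrays on top, Thy1 (detected on 18 arrays, 6.24 to 9.63) and Cd34 (on 15, 4.38 to 7.76) each had 3 of them among their own 9 highest, Pdgfra was detected on 17 arrays (4.61 to 5.87), and Lum, Tcf21 and Col14a1 were detected on no array. The mean of the 7 ranged from 5.37 to 5.64 on KO day 3, 5.21 to 6.06 on OE day 3, 5.41 to 5.94 on Wt day 3, 5.35 to 5.54 on KO day 0, 5.92 to 6.08 on OE day 0 and 5.14 to 5.81 on Wt day 0. Of 5 adipocyte markers, Lpl had those 9 arrays on top, Adipoq was detected on 2 arrays, and Plin1, Fabp4 and Cidec were detected on none. Of 5 leukocyte markers with a probe, Laptm5 was detected on all 18 arrays (6.78 to 10.29) and had its 9 highest arrays where Ckm was low, Csf1r was detected on 10, Adgre1 and Itgam on 1 each, and Ptprc on none. The mean of the 5 ranged from 5.13 to 5.19 on KO day 3, 5.13 to 5.72 on OE day 3, 5.08 to 5.55 on Wt day 3, 5.07 to 5.58 on KO day 0, 5.06 to 5.74 on OE day 0 and 4.98 to 5.49 on Wt day 0. Of 5 endothelial markers, Tek was detected on 16 arrays (4.58 to 7.49), Kdr on 5, Pecam1 on 4, Cdh5 on 1 and Tie1 on none. Of 3 Schwann and neural markers with a probe, Ngfr was detected on 17 arrays (4.57 to 6.89), S100b on 1 and Sox10 on none. Of 5 cardiomyocyte markers, Myh6 was detected on all 18 arrays (4.70 to 6.75) and shared 8 of its 9 highest arrays with Ckm. Nppb was detected on 9 arrays (4.24 to 6.14), Nppa and Ryr2 on 3 each and Tnni3 on 2. The part of other cells in the 5 genes' pattern was not tested.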

How the data were processed

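The deposited data are Illumina bead array values. Per the file headers, the authors' non-normalised table gives an intensity, averaged over beads, and its detection p-value, for every probe on every array. The authors' further table of processed intensity values, made by a method not given in the labels, served as an alternative. All log2 values were computed here from the deposited intensities. Probes were named from the platform annotation, with symbols updated by Entrez identifier to RefSeq (GRCm38.p6). Of the probes, 34885 had 1 symbol, 18 several and 10378 none.

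The neqc function of limma 3.58.1 (R 4.3.3) corrected the background from the detection p-values with an offset of 16 and normalised by quantiles. Probes with detection p below 0.05 on at least 3 arrays were kept (22365), and the brightest represented each of 11921 genes. All 9 probes of the genes described here were kept. One limma fit with a mean per labelled group (18 arrays, 12 residual degrees of freedom) gave 9 comparisons, adjusted by Benjamini-Hochberg over all genes. The pipeline was tested on simulated data.

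Named are these genes, the 3 genes closest to each one with an SD above 0.5, and the 3 members of each list with the widest range, besides Ckm, Top2a, Usp18, Gata4 and cell type markers. Genes named for sharing the 9 highest arrays of Ckm were chosen after their values were seen. The genes, lists and marker sets were chosen with earlier results of these data known. Alternatives were other background corrections, normalisations, filters and probe rules, the processed values, array weights, a block for the replicate number, the compared groups alone, and the removal of single arrays. With 3 arrays per group, their number limits the precision.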

Additional observations from a re-analysis of the deposited data

How the results depend on the processing

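The split of the arrays kept its members: under 7 ways of making the values, the 9 highest arrays of Trim63, Trim54, Klhl31, Klhl40 and Klhl41 were those of Ckm, and Fbxo32 shared 4 or 5 of them. With median scaling the widest gap of Trim54 and of Klhl40 lay elsewhere. No gene and none of the 6 genes described here passed under any alternative other than array weights and, for KO against Wt at day 0, leaving out KO day 0 replicate 1, which gave 10 genes (0 to 10 over the arrays left out). Array weights, which favour arrays close to their group's mean, gave 6266 genes for day 3 against day 0 in KO, with all 6 of these genes, and 663 for that comparison in Wt, with 2 of them. They gave 1055 genes for KO against Wt at day 0, 961 for OE against Wt at day 0 and 134 for the KO change minus the Wt change. The weighted differences of day 3 from day 0 in KO were 1.91 for Trim63, 1.38 for Trim54, 0.57 for Fbxo32, 2.02 for Klhl31, 1.55 for Klhl40 and 1.53 for Klhl41. In Wt they were 1.98 for Klhl31 and 2.26 for Klhl40.

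Of 594 recomputed differences under alternatives that kept all compared arrays, 577 kept their sign and side of the threshold, 8 passed only there and 9 changed sign. The sign changed with median scaling for Klhl31 in day 3 against day 0 in OE (−0.0055), for Klhl31 (0.094) and Klhl40 (0.17) in OE against Wt at day 0, and for Klhl41 in KO against Wt at day 0 (0.083). With array weights it changed for Klhl40 (0.28) and Trim63 (0.0065) in day 3 against day 0 in OE, for Klhl40 in KO against Wt at day 3 (−0.11), and for Klhl41 in KO against Wt at day 0 (0.10) and in the KO change minus the Wt change (−0.057). The cause was not tested. Leaving out 1 array changed the sign of 60 of 396 differences. For day 3 against day 0 in OE the ranges were −0.89 to 0.47 for Trim63, −1.12 to 0.0080 for Trim54, −0.040 to 0.69 for Fbxo32, −0.44 to 0.91 for Klhl31, −0.62 to 0.69 for Klhl40 and −0.14 to 1.02 for Klhl41. For KO against Wt at day 0 they were −0.91 to 0.27 for Trim63, −0.11 to 0.60 for Trim54, −0.50 to 1.05 for Klhl31, −0.11 to 1.23 for Klhl40 and −0.44 to 0.67 for Klhl41. At day 3 they were −0.25 to 0.86 for Trim63, −0.086 to 0.71 for Trim54, −0.0064 to 0.96 for Klhl31, −0.41 to 0.57 for Klhl40 and −0.16 to 0.70 for Klhl41. For OE against Wt at day 0 they were −0.97 to 0.27 for Trim63, −0.34 to 0.62 for Trim54, −0.15 to 0.58 for Fbxo32, −0.86 to 0.76 for Klhl31, −0.83 to 0.82 for Klhl40 and −1.08 to 0.38 for Klhl41. For the KO change minus the Wt change they were −0.38 to 0.52 for Trim54, −0.42 to 1.13 for Klhl31, −1.0 to 0.34 for Klhl40 and −0.28 to 0.83 for Klhl41. For the OE change minus the Wt change they were −1.60 to 0.019 for Klhl31 and −1.11 to 0.36 for Klhl41.

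The replicate numbers did not pair the arrays: of 45 pairs of arrays with the same number, 18 had deviations from their group means that correlated above 0.1, with a range of −0.73 to 0.79. With the replicate number as a block, 0 genes passed in each comparison, and Fbxo32 in OE against Wt at day 3 had a difference of 0.86 with an adjusted p of 0.89 (limma). Arrays, at 3 per group with both kinds in 5 of 6 groups, limit what these comparisons can show.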
